A study of Bos taurus with 6 samples.

Results

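Transcripts of a group of secreted and membrane-bound proteases that cut cartilage matrix or shed cell-surface proteins, and of their inhibitors, were followed in bovine articular chondrocytes given TGF-β1. The group was chosen by gene symbol: the aggrecanases ADAMTS1, ADAMTS4 and ADAMTS5, the ADAM sheddases ADAM9, ADAM10 and ADAM17, the tissue inhibitors of metalloproteinases TIMP1, TIMP2 and TIMP3, and the serine protease HTRA1. Of these 10 genes, 9 had at least 1 probe set annotated with that symbol alone, giving 18 of the 24016 probe sets tested, and ADAM17 was not analysed here. A probe set is a group of short probes that measure one transcript sequence together. ADAM9, ADAM10 and TIMP2 had 3 probe sets each, ADAMTS1, ADAMTS5 and TIMP1 had 2 each, and ADAMTS4, TIMP3 and HTRA1 had 1 each. Where a gene had several, they are numbered in the text as probe set 1, 2 and 3. Both probe sets of ADAMTS5 were designed from one sequence record, as were both of TIMP1, so they are not separate views of the transcript.

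The 3 TGF-β-treated cultures were exposed for 8 hours to TGF-β1 at 5 ng/ml, and the 3 untreated cultures received vehicle alone for the same time, both after a night in culture. All were micromasses, high-density drops of chondrocytes isolated with collagenase from full-thickness cartilage of the metacarpal-phalangeal joints of 3 cows, kept in low serum. RNA of each culture was amplified in 2 cycles and hybridised to an Affymetrix bovine array. The labels number the cultures 1 to 3 within each group but do not name the cow.

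Aggrecan, the large proteoglycan that lets cartilage hold water, is cut within its core protein by the ADAMTS enzymes called aggrecanases, and its loss is an early event in osteoarthritis. ADAM proteases sit in the cell membrane and release the outer parts of receptors, growth factors and adhesion proteins. TIMPs are small secreted proteins that block the active sites of metalloproteinases, and the 4 family members differ in their targets: TIMP3, which is held in the matrix, is the one best known for inhibiting aggrecanases and ADAM17. HTRA1 is a secreted serine protease that digests fibronectin and matrix proteoglycans and is raised in osteoarthritic cartilage.

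The values are log2 intensities from which the median of the 6 arrays was subtracted for each probe set. A value of 1 therefore means 1 log2 unit above that probe set's own median. Levels are lost, so neither 2 genes nor 2 probe sets can be ranked by abundance, and a transcript at background cannot be told from one that did not change. Differences are TGF-β-treated minus untreated within a replicate number, averaged over 3 pairs and tested 2-sided with limma across all probe sets. The words rose and fell are used where the Benjamini-Hochberg adjusted p was under 0.05.

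The arrays fell out by replicate number more than by treatment. Same-numbered arrays deviated together from their group means (r = 0.694 to 0.845 across probe sets), whereas the other pairs gave r of -0.683 to 0.185, and replicate 3 stood apart from the others on a first principal component that held 56.4% of all variance. Proliferation markers (16 of 20 on the array) had medians of -0.26, -0.06 and 2.62 in TGF-β-treated replicates 1, 2 and 3, against -0.14, -0.07 and 2.54 in the untreated replicates. Of 14 articular chondrocyte markers 7 were on the array, with medians of -0.20, 0.55 and -0.43 after TGF-β and -0.01, 0.31 and -0.41 without it. Fibroblast markers (6 of 7) had medians of -0.22, 0.08 and -0.07 in TGF-β-treated replicates 1, 2 and 3 and -0.04, 0.17 and 0.08 in untreated ones, lower after TGF-β in each pair, and hypertrophic markers (6 of 6) had medians of -0.04 to 0.05 after TGF-β and -0.04 to 0.00 without it. The part of these markers in the results was not tested. Medians of the endothelial (5 of 5) and leukocyte (6 of 7) markers stayed between -0.06 and 0.10 on every array, but centred values cannot show whether such cells were absent. On 1 array, TGF-β-treated replicate 2, the bacterial spike-in controls were bright (median of 18 probe sets 1.53, and -0.17 to 0.06 elsewhere), so values without replicate 2 are given beside the calls it changed. In these bulk cultures fewer cells of a type and less RNA per cell cannot be told apart. Over all probe sets 585 rose (2.44%) and 832 fell (3.46%).

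Within the protease and inhibitor group, 3 of the 4 probe sets that rose belonged to aggrecanase genes. ADAMTS1 rose on both of its probe sets, by 2.34-fold and 2.41-fold, ADAMTS4 rose 1.74-fold, and ADAM9 rose 1.52-fold on 1 of 3 probe sets. That makes 4 of 18 probe sets higher (22.2%, against a background of 2.44%) and 0 lower (background 3.46%). The genes were chosen with earlier results of these data known, so these shares are given as a description. At an unadjusted p under 0.05, limma gave 9 higher and 4 lower, where 2065 (8.60%) and 2655 (11.1%) of all probe sets were higher and lower by the same measure. The other 14 probe sets, among them every one of ADAMTS5, ADAM10, the TIMPs and HTRA1, did not pass. Differences of one sign in all 3 pairs were common: 4955 of all 24016 probe sets were higher in every pair and 4810 lower. Among the 18 these counts were 9 and 4. The median difference over the 18 was 0.23 log2 units (0.34 without regard to sign), against 0.01 (0.12) over all probe sets tested.

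**Figure D1:**
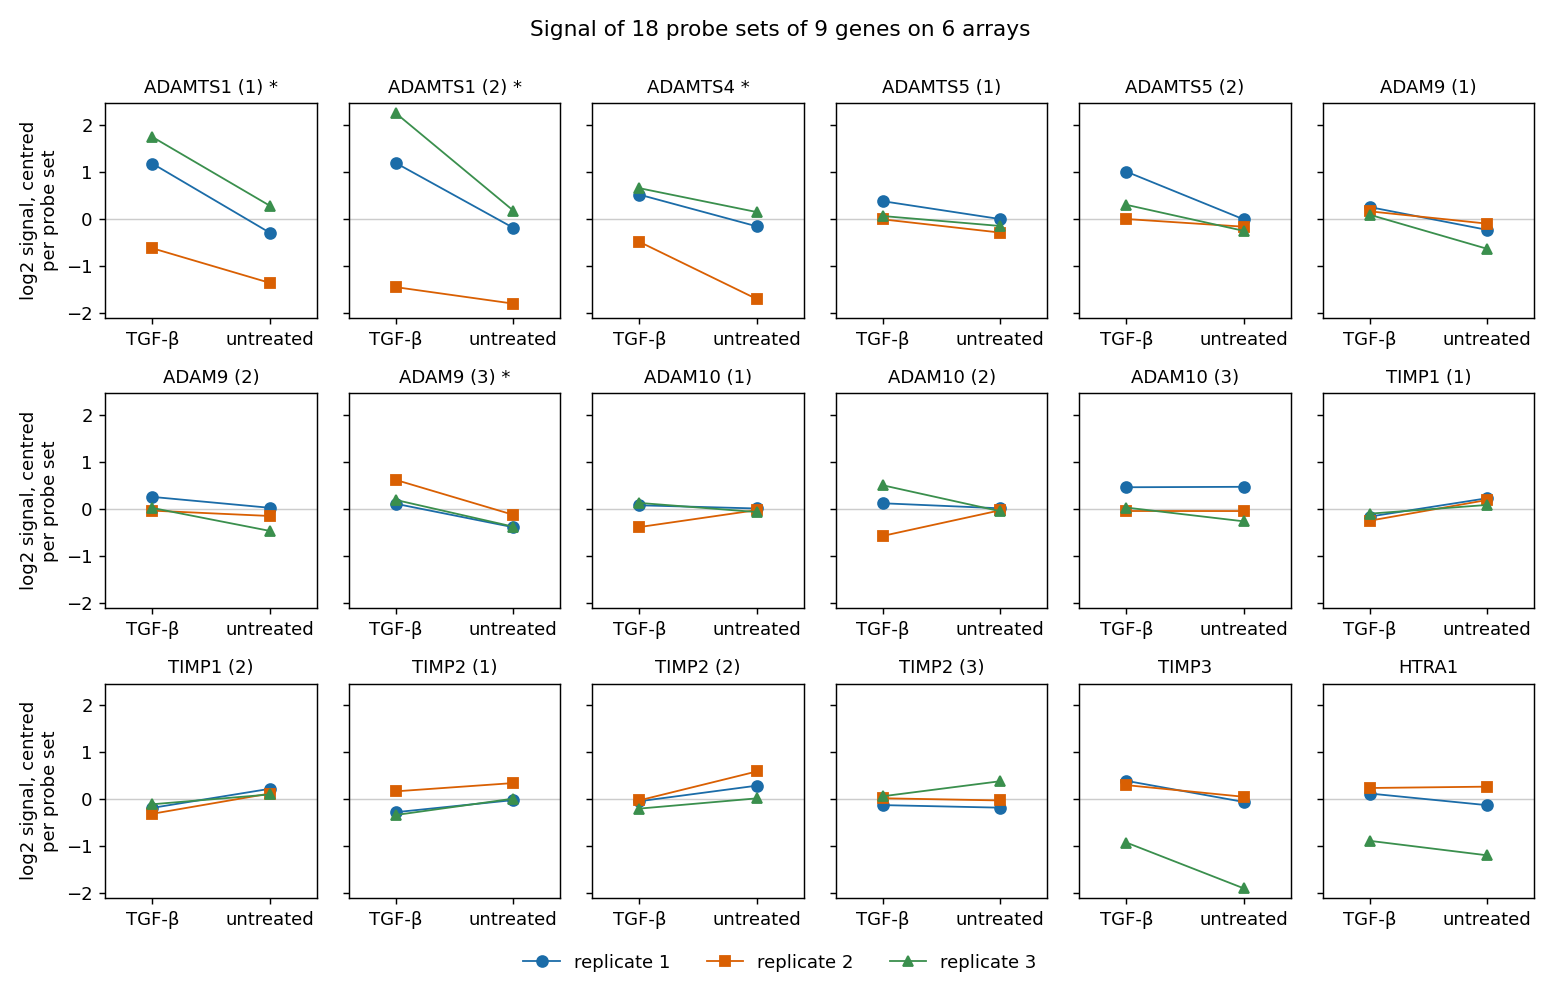
Centred log2 signal (vertical axis) of each of the 18 probe sets, 1 per panel, on the 3 TGF-β-treated (left) and 3 untreated (right) arrays, with a line joining the arrays of a replicate number. The number in brackets is the probe set and a star marks an adjusted p under 0.05. Replicate 2 lies low in both groups for ADAMTS1 and ADAMTS4, and replicate 3 for TIMP3 and HTRA1.

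ADAMTS1, an aggrecanase that also cuts versican and lies next to ADAMTS5 on bovine chromosome 1, had the largest differences of the 9 genes. Probe set 1 read 1.18, -0.62 and 1.75 in TGF-β-treated replicates 1, 2 and 3 and -0.29, -1.35 and 0.29 in the untreated replicates. Every treated culture was above its own control, but replicate 2 was low in both groups, so that the treated culture of replicate 2 lay under the untreated cultures of the other numbers and the groups overlapped. The pairwise differences were 1.47, 0.74 and 1.46, with a mean of 1.22 log2 units (SE 0.156, 95% interval 0.87 to 1.58, limma adjusted p = 0.00363). Probe set 2 read 1.20, -1.44 and 2.25 after TGF-β against -0.18, -1.79 and 0.18 in untreated cultures. Its mean difference was 1.27 (SE 0.261, 95% interval 0.67 to 1.86, limma adjusted p = 0.0261), but its pairs differed more widely, at 1.38, 0.35 and 2.07. The SD of its 3 differences was 0.866, against 0.422 for probe set 1, and limma drew its SE down toward the spread of all probe sets. Probe set 1 kept its call without any 1 replicate (limma adjusted p 0.00232 to 0.00995), whereas probe set 2 lost it without replicate 1 (adjusted p = 0.0556). Probe set 2 also lost its call when limma was run with a robust variance prior (adjusted p = 0.0552), so it is the less firm of the 2.

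ADAMTS4, one of the pair of enzymes that account for most aggrecan cleavage in cartilage, read 0.52, -0.48 and 0.66 in TGF-β-treated replicates 1, 2 and 3 and -0.15, -1.70 and 0.15 in the untreated replicates. As for ADAMTS1, replicate 2 was low under both conditions and the groups overlapped although each pair differed in the same direction. The mean difference was 0.80 log2 units (SE 0.146, 95% interval 0.47 to 1.13, limma adjusted p = 0.0157). Here replicate 2 had the largest of the 3 differences, at 1.22, against 0.67 and 0.51 in replicates 1 and 3. Without that replicate the difference was 0.59 and the call was lost (limma adjusted p = 0.0708).

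The 3 probe sets of ADAMTS1 and ADAMTS4 ranked the 6 cultures in one identical order, from the TGF-β-treated cultures of replicates 3 and 1 through the untreated cultures of replicates 3 and 1 to the treated and then the untreated culture of replicate 2. This was seen only after their values had been examined and is given as a description. The same order held for 67 of the 24016 probe sets (0.279%). None of the other 15 probe sets of the group had it.

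ADAMTS5, the aggrecanase whose deletion protects mice from cartilage loss, gave positive differences in all 3 pairs on both probe sets, but neither passed. Probe set 2 read 1.01, 0.00 and 0.31 in TGF-β-treated replicates 1, 2 and 3 and 0.00, -0.16 and -0.25 in untreated ones. All 3 treated cultures were above all 3 untreated cultures, an arrangement found for 6.11% of all probe sets and for 3 of the 18. Its mean difference was 0.58 (SE 0.157, 95% interval 0.22 to 0.93, limma adjusted p = 0.0721), and the largest part came from replicate 1, whose pair differed by 1.02, against 0.16 and 0.55 in replicates 2 and 3. Probe set 1 read 0.38, 0.00 and 0.07 after TGF-β against 0.00, -0.28 and -0.14 without it. Its difference was smaller, at 0.29 (SE 0.106, limma adjusted p = 0.167), although its pairs were closer together (0.38, 0.28 and 0.21). Unlike ADAMTS1 and ADAMTS4, ADAMTS5 was highest in the treated culture of replicate 1.

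**Figure D2:**
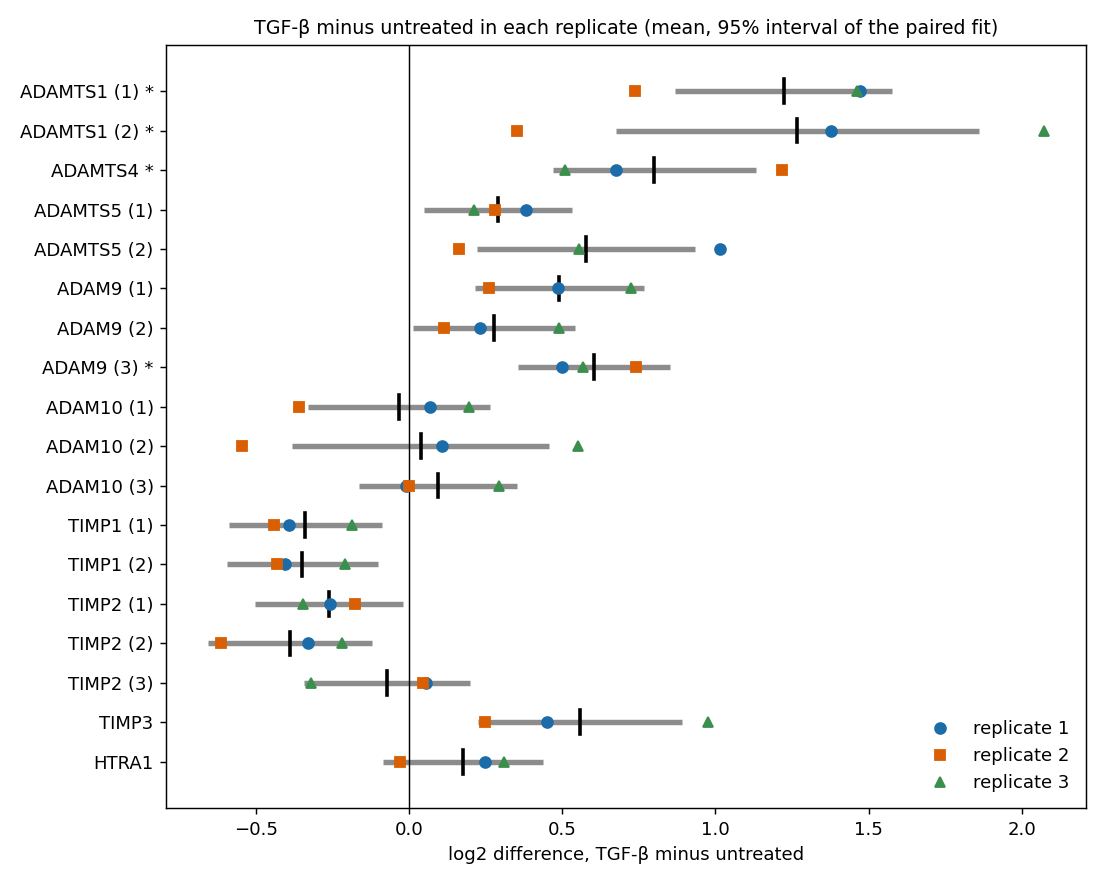
Log2 difference, TGF-β-treated minus untreated (horizontal axis), of each of the 18 probe sets in each replicate (symbols), with the mean (tick) and its 95% interval from limma (grey bar). Stars mark the 4 probe sets with an adjusted p under 0.05, which are both of ADAMTS1, ADAMTS4 and probe set 3 of ADAM9, and the intervals of all 3 ADAM10 probe sets include 0.

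ADAM9 and ADAM10 were the sheddases of the chosen group that had probe sets annotated with their symbol alone. ADAM9, a membrane protease able to release growth factors of the EGF family, had positive differences in all 3 pairs on each of its 3 probe sets, and 1 passed. Probe set 3, which rose, read 0.12, 0.62 and 0.20 in TGF-β-treated replicates 1, 2 and 3 and -0.38, -0.12 and -0.37 in the untreated replicates. The groups did not overlap, and the pairwise differences of 0.50, 0.74 and 0.57 were the most even among the 4 probe sets that rose. Their mean was 0.60 log2 units (SE 0.109, 95% interval 0.35 to 0.85, limma adjusted p = 0.0154), and without replicate 2 the call was lost (difference 0.53, adjusted p = 0.0837). Probe set 1 read 0.26, 0.17 and 0.09 after TGF-β against -0.23, -0.09 and -0.63 in untreated cultures. It too was free of overlap, and its difference of 0.49 (SE 0.122) stood close to the threshold (limma adjusted p = 0.0522). Probe set 2 read 0.26, -0.03 and 0.03 against 0.03, -0.14 and -0.46, with overlap, a difference of 0.28 (SE 0.116) and a limma adjusted p of 0.229. The 95% intervals of the 3 probe sets overlapped (0.21 to 0.77, 0.01 to 0.54 and 0.35 to 0.85 for probe sets 1, 2 and 3).

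ADAM10, the protease that makes the ligand-dependent cut in Notch receptors and sheds many adhesion proteins without stimulation, gave no probe set that passed. Probe set 1 read 0.09, -0.38 and 0.14 in TGF-β-treated replicates and 0.02, -0.02 and -0.06 in untreated ones. Probe set 2 read 0.13, -0.57 and 0.51 after TGF-β and 0.02, -0.02 and -0.04 without it. On both, the untreated cultures lay close together while the treated cultures spread to either side of them, with replicate 2 below and replicate 3 above. Their mean differences were -0.03 (95% interval -0.33 to 0.27, limma adjusted p = 0.932) and 0.04 (-0.38 to 0.46, adjusted p = 0.946). Probe set 3 read 0.47, -0.04 and 0.04 after TGF-β and 0.48, -0.04 and -0.26 without it, so that only replicate 3 showed a difference. Its mean difference was 0.09 (95% interval -0.16 to 0.35, limma adjusted p = 0.735).

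The inhibitors gave differences of both signs, and 0 of their 6 probe sets passed. TIMP1, which inhibits most matrix metalloproteinases and ADAM10 but few other ADAMs, read -0.15, -0.24 and -0.09 on probe set 1 in TGF-β-treated replicates 1, 2 and 3 and 0.24, 0.20 and 0.09 in untreated ones. Probe set 2 read -0.18, -0.31 and -0.10 after TGF-β and 0.22, 0.12 and 0.10 without it. On both, every treated culture was under every untreated culture, an arrangement found for 4.91% of all probe sets, and the replicate numbers differed little. The differences were -0.34 (SE 0.110, limma adjusted p = 0.123) and -0.35 (SE 0.109, limma adjusted p = 0.110), and neither passed.

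TIMP2, an inhibitor that also takes part in the activation of MMP2 by the membrane protease MMP14, had differences of -0.26 (SE 0.106, limma adjusted p = 0.216), -0.39 (SE 0.118, adjusted p = 0.102) and -0.07 (SE 0.119, adjusted p = 0.815) on probe sets 1, 2 and 3. On probe set 2, TGF-β-treated replicates 1, 2 and 3 read -0.04, -0.02 and -0.20 and untreated replicates 0.29, 0.59 and 0.02. All treated cultures were lower than all untreated ones there, which made it the only probe set besides those of TIMP1 with that arrangement among the 18. Probe set 1 read -0.27, 0.17 and -0.33 after TGF-β and -0.02, 0.35 and 0.02 without it, with negative differences in all pairs but overlapping groups. Probe set 3 read -0.12, 0.02 and 0.07 after TGF-β and -0.18, -0.02 and 0.39 without it. Only replicate 3 was lower after TGF-β on that probe set, and its mean difference changed sign, to 0.05, without replicate 3.

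TIMP3, the inhibitor of aggrecanases, had positive differences in all 3 pairs. It read 0.39, 0.30 and -0.92 in TGF-β-treated replicates 1, 2 and 3 and -0.05, 0.05 and -1.89 in the untreated replicates. Replicate 3 was the lowest in both groups, so that the groups overlapped, and its pair had the largest difference, at 0.97, against 0.45 and 0.25 in replicates 1 and 2. The mean difference of 0.56 (SE 0.147, 95% interval 0.22 to 0.89) did not pass (limma adjusted p = 0.0646). Over the 6 probe sets of TIMP1, TIMP2 and TIMP3, limma at an unadjusted p under 0.05 gave 1 higher, that of TIMP3, and 4 lower, beside shares of 8.60% and 11.1% over all probe sets. The 4 lower were both probe sets of TIMP1, designed from one sequence record, and probe sets 1 and 2 of TIMP2, so they are not 4 separate genes.

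HTRA1 varied with the replicate number and little with treatment. It read 0.12, 0.24 and -0.88 in TGF-β-treated replicates 1, 2 and 3 and -0.12, 0.27 and -1.19 in the untreated replicates. Replicate 3 was low in both groups, and the difference of 0.18 (SE 0.115, 95% interval -0.09 to 0.44) did not pass (limma adjusted p = 0.466). The replicate number took 96.0% of the variation among its 6 values and treatment 2.4%.

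The genes differed in where their variation lay. Treatment accounted for the largest share on both probe sets of TIMP1 (88.6% and 86.2%), on probe sets 1 and 3 of ADAM9 (68.1% and 73.9%), on both of ADAMTS5 (50.3% and 47.0%) and on probe set 2 of TIMP2 (55.3%). For ADAMTS1 the replicate number took 63.7% and 73.4%, against 33.6% and 20.3% for treatment, and for ADAMTS4 it took 70.4%, against 25.9%. TIMP1 thus had a high treatment share of a small variation and was not called, whereas ADAMTS1 and ADAMTS4 had a lower share of a wide one and were called. TIMP3 and HTRA1 were low in replicate 3 (mean of both cultures -1.41 and -1.04), the replicate in which proliferation markers were high, whereas ADAMTS1 and ADAMTS4 were low in replicate 2. The part of cell proliferation in these values was not tested. Over the 18 probe sets the median share was 48.2% for the replicate number and 32.1% for treatment, against 59.5% and 11.9% over all probe sets.

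**Figure D3:**
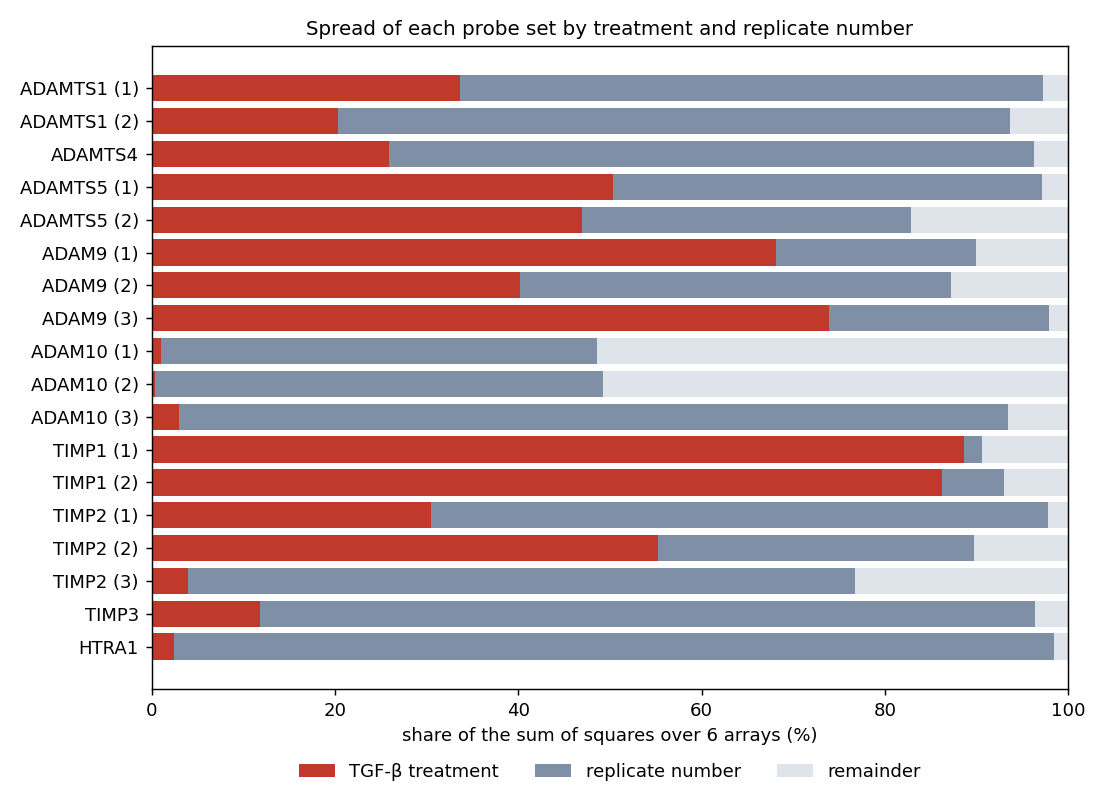
Share (%) of the sum of squares of each probe set's 6 values that lies between TGF-β-treated and untreated cultures, between replicate numbers, and in the remainder. TIMP1 lies at the treatment end (88.6% and 86.2%) and HTRA1 at the replicate end (96.0%). The remainder is over 50% only for probe sets 1 and 2 of ADAM10.

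Calls in this group rested on comparing cultures within a replicate number. When the number was left out of the limma fit, 0 of the 18 probe sets and 0 of all 24016 passed, and the lowest adjusted p among the 18 was 0.632. Before adjustment that fit had 2 higher and 2 lower of the 18 with a p under 0.05, and 1377 of all probe sets. The methods' test, which assumes unequal variances, also passed 0 of them, with 1 higher and 2 lower of the 18 and 1032 of all before adjustment.

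Relatives of these proteases passed at close to the share of all probe sets. Of 70 further metalloproteinase and inhibitor genes, 27 were on the array with 42 probe sets, of which 1 rose (2.38%, background 2.44%), 1 fell (2.38%, background 3.46%) and 40 did neither, and the median difference was 0.04. ADAM19, a sheddase of neuregulin, rose: it read 0.33, 0.40 and 0.28 in TGF-β-treated replicates 1, 2 and 3 and -0.30, -0.33 and -0.28 in untreated ones. The groups were far apart and the replicates close, with a difference of 0.64 (SE 0.106, limma adjusted p = 0.0106; 0.0627 without replicate 2). TIMP4, the remaining inhibitor of the family, fell on 1 of its 3 probe sets, which read -0.09, 0.09 and -0.69 after TGF-β and 0.50, 0.93 and -0.27 without it. The groups overlapped, while each pair was lower after TGF-β, with a mean difference of -0.62 (SE 0.119, limma adjusted p = 0.0198; 0.0692 without replicate 1 and 0.105 without replicate 2). The other TIMP4 probe sets differed by -0.68 (adjusted p = 0.0712) and 0.04 (adjusted p = 0.914). Of the matrix metalloproteinases, the collagenase MMP1 differed by 0.29 (limma adjusted p = 0.306), the gelatinase MMP2 by 0.11 (0.670), and the stromelysin MMP3 by -0.10 to 0.13 on 3 probe sets (0.607 to 0.867), none of which passed.

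Of 51 genes for proteins that activate, escort or control these proteases, 37 were on the array with 59 probe sets. Of these 6 rose (10.2%, background 2.44%), 3 fell (5.08%, near the background of 3.46%) and 50 did neither, with a median difference of 0.03. The 6 were probe sets of 5 genes. This list was written with earlier results of these data known, so its shares are given as a description. IL6, an inflammatory cytokine that chondrocytes can make, had the largest difference in the list, 2.03 log2 units (SE 0.197, limma adjusted p = 0.000992), with 0.96, 0.38 and 2.13 in TGF-β-treated replicates 1, 2 and 3 and -1.26, -0.97 and -0.38 in untreated ones. The AP-1 subunits JUNB (0.79, adjusted p = 0.00516) and FOS (0.57 and 0.56 on 2 probe sets, adjusted p = 0.0303 and 0.0438), the urokinase receptor PLAUR (0.91, adjusted p = 0.0109) and TGFB1 itself (0.84, adjusted p = 0.0240) rose. TSPAN33, a tetraspanin that escorts ADAM10 to the membrane, fell on both probe sets, by 0.71 and 0.53 (limma adjusted p = 0.0118 and 0.0262), while the 3 probe sets of ADAM10 did not pass. FRMD8, which stabilises the iRhom proteins that carry ADAM17, fell by 0.48 (adjusted p = 0.0399). FURIN, the convertase that removes the prodomain of these enzymes, differed by 0.27 and 0.20 (adjusted p = 0.217 and 0.441), its relative PCSK7 by 0.03 (0.931), and FN1, the fibronectin that binds ADAMTS4, by 0.31 and 0.00 (0.142 and 0.995). IL6 and JUNB kept their calls without any 1 replicate, whereas PLAUR and both TSPAN33 probe sets lost theirs without replicate 2 (limma adjusted p 0.0658 to 0.0886), 1 TSPAN33 probe set also without replicates 1 and 3 (0.0771 and 0.104), and TGFB1, FOS and FRMD8 without replicate 1 or replicate 2 (0.0857 to 0.238).

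Among 61 genes for proteins these enzymes are known to cut, 45 were on the array with 73 probe sets, of which 6 rose (8.22%, background 2.44%), 2 fell (2.74%, under the background of 3.46%) and 65 did neither. The median difference was 0.00. The 6 were probe sets of 4 genes, and this list too was written with earlier results of these data known. The Notch ligand JAG1, shed by ADAM proteases, rose on both probe sets by 1.21 and 0.78 (limma adjusted p = 0.00213 and 0.00470), with every treated culture above every untreated one. IGFBP5, a carrier of insulin-like growth factors, rose by 1.66 (adjusted p = 0.00581), and COMP, a cartilage matrix protein, by 0.79 and 1.05 (adjusted p = 0.0209 and 0.0360). The receptors of tumour necrosis factor went opposite ways: TNFRSF1B rose by 0.53 (adjusted p = 0.0276), whereas TNFRSF1A fell by 0.57 (adjusted p = 0.0260). The adhesion protein VCAM1 fell by 1.07 (limma adjusted p = 0.0121), with -0.12, -0.64 and -1.20 in TGF-β-treated replicates 1, 2 and 3 and 0.33, 0.82 and 0.12 in untreated ones. JAG1 and IGFBP5 kept their calls without any 1 replicate, while COMP lost its calls without replicate 1 (limma adjusted p = 0.0752 and 0.0876) and 1 of them without replicate 3 (0.0557), TNFRSF1A and TNFRSF1B whichever replicate was left out (0.0619 to 0.160), and VCAM1 without replicate 2 (0.106).

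The proteoglycans that aggrecanases cut did not pass. Aggrecan itself, ACAN, read -0.32, 0.60 and -0.71 on its probe set with the largest difference in TGF-β-treated replicates 1, 2 and 3 and 0.32, 1.01 and -0.58 in untreated ones, a difference of -0.40 (SE 0.126, limma adjusted p = 0.114), and its other probe sets differed by -0.25 and 0.13 (adjusted p = 0.264 and 0.634). Versican, VCAN, the preferred target of ADAMTS1, differed by 0.79, 0.55 and 0.47 on 3 probe sets (adjusted p = 0.0732, 0.175 and 0.352), and BCAN, a brain proteoglycan of the same family, by 0.19 (adjusted p = 0.413). The VCAN differences came mainly from replicate 1, with 1.57, 0.40 and 0.39 in replicates 1, 2 and 3 on the probe set with the lowest adjusted p.

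**Figure D4:**
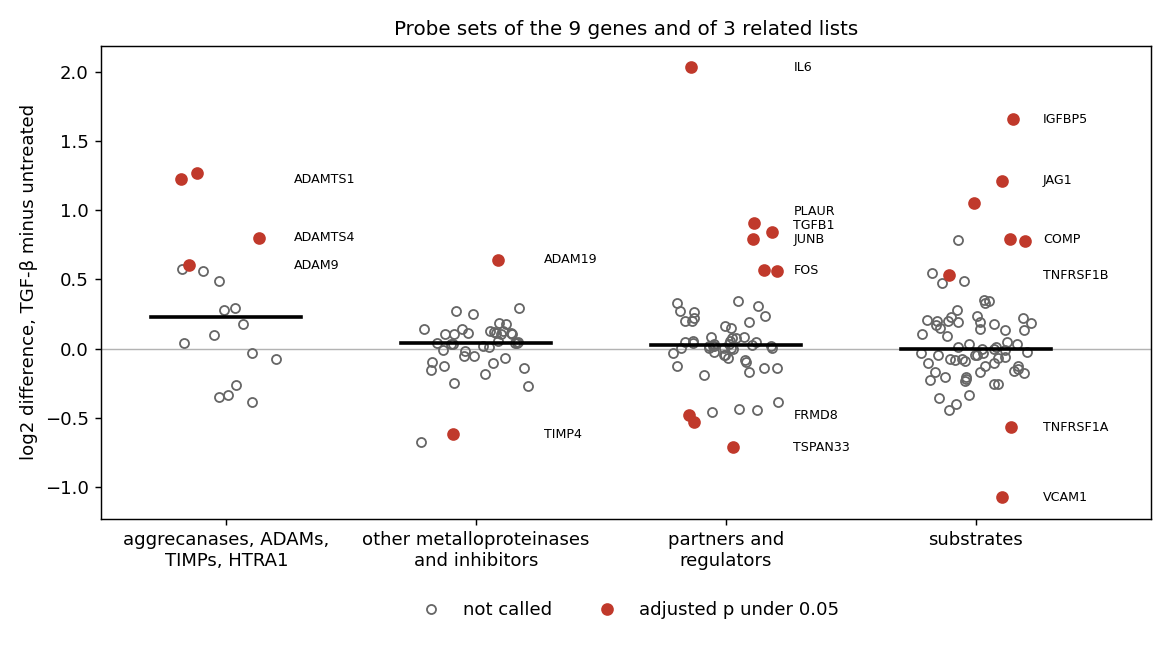
Mean log2 difference, TGF-β-treated minus untreated, of every probe set of the 9 genes and of the 3 related lists, with the list median as a bar and probe sets at an adjusted p under 0.05 filled. Medians are 0.23 for the 9 genes and 0.04, 0.03 and 0.00 for the lists of relatives, partners and substrates, where most points lie near 0.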

How the data were processed

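The deposited values are log2 intensities of 6 arrays, made by the authors in GeneSpring with Robust Multichip Average and centred on each probe set's median over the arrays (largest absolute median 5e-07). They were used as deposited. Of 24128 probe sets, 112 array controls were left out. Platform annotation gave 13292 of the remaining 24016 probe sets a single symbol, 86 several and 10638 none; 13263 were matched through their Entrez identifier to RefSeq genes (ARS-UCD2.0). No 2 arrays were copies of each other (at most 56 identical values).

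Differences were fitted with limma 3.58.1 (R 4.3.3; lmFit and eBayes) with the replicate number as a term, 2-sided, with Benjamini-Hochberg adjustment over 24016 probe sets (residual degrees of freedom 2, prior 6.72, prior SD 0.144). The arrays were treated as paired by number, as the comparison was planned. Deviations from the group means correlated above 0.1 in each same-numbered pair (r = 0.740, 0.694 and 0.845). That threshold alone does not mark the pairing, since TGF-β-treated replicate 1 with untreated replicate 2 gave r = 0.185. All differently numbered pairs (-0.683 to 0.185) lay below every same-numbered pair. By the methods, each of the cows gave cultures for both conditions, but no label ties a number to a cow. With 3 pairs, p-values reflect these cultures only, and limma combined the spread between their pairs with a spread estimated from all probe sets. The prior carried more degrees of freedom (6.72) than the pairs (2), and the 3 arrays per group limit precision. A fit without 1 replicate had 1 residual degree of freedom, against a prior of 9.96 in the fit without replicate 1. The p-values of such fits therefore rested mainly on the prior and could fall although fewer arrays were used. The fit was tested on simulated data.

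The genes, the 3 lists and the tests were chosen with earlier results of these data known. Named were every probe set of the 9 genes, each list gene with a call (up to 8 a list), and the first 3 of each list without one. Alternatives were no replicate term, the methods' unequal-variance test, quantile normalization, median centring of arrays, a robust prior, gene means, adjustment over single-symbol probe sets, and leaving out each replicate. A filter on dim probe sets and another background correction were not run, since centred values keep no level and scanner files were not used here. Figures were drawn with matplotlib 3.10.9.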

Additional observations from a re-analysis of the deposited data

Results flagged for a closer look

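The spike-in controls, bacterial transcripts added to each sample that enter none of the comparisons above, were bright on 1 array. Over 18 such probe sets the TGF-β-treated array of replicate 2 had a median of 1.53 log2 units, whereas the medians of the remaining 5 arrays lay between -0.17 and 0.06. The part of this in the values of replicate 2 was not tested. Without replicate 2, both probe sets of ADAMTS1 kept their calls (limma adjusted p = 0.00661 and 0.0114), whereas ADAMTS4 and probe set 3 of ADAM9 lost theirs (0.0708 and 0.0837).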

How the results depend on the processing

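Without the replicate term (no pairing), and with the methods' unequal-variance test, the 4 of 18 probe sets that rose became 0, as did each count for relatives (1 higher, 1 lower), partners (6, 3), substrates (6, 2) and all probe sets (585, 832). Adjusting over the 13292 single-symbol probe sets gave 305 higher and 552 lower of these and added probe set 1 of ADAM9 (adjusted p = 0.0493). Gene means gave 205 higher and 419 lower of 9155 genes, with 0 relatives lower. Both totals are smaller than the 24016 probe sets of the other settings, so these counts cannot be set directly beside 585 and 832. Quantile normalization gave 377 and 443, with 0 relatives lower, 3 partners and 4 substrates higher, and no call for ADAMTS4 (adjusted p = 0.0705), TIMP4 (0.0617), TGFB1 (0.0811), FOS (0.116 and 0.0624), FRMD8 (0.0713) or COMP (0.0849 and 0.0653). Under the robust prior probe set 2 of ADAMTS1 (0.0552) and 1 probe set of COMP (0.0716) were not called, and with arrays centred on their medians 1 probe set of FOS (0.0538) was not. By gene mean TIMP4 was not called (0.0567), and ADAM9 was (0.0352). Leaving out a replicate gave 2 to 4 of the 18 higher, 0 to 1 relatives higher and 0 to 2 lower, 2 to 6 partners higher and 0 to 3 lower, 3 to 6 substrates higher and 0 to 2 lower, and 272 to 590 higher and 267 to 747 lower of all. The signs of uncalled differences turned for ADAM10 (-0.147 to 0.131 on probe set 1, and 0.033 by gene mean; -0.219 to 0.33 on probe set 2; -0.004 to 0.147 on probe set 3) and for probe set 3 of TIMP2 (-0.137 to 0.051). The causes were not tested. Probe set 1 of ADAMTS1 kept its call in all paired alternatives. Probes near background could not be told apart from the others.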
